A study of Mus musculus with 12 samples.

Results

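The genes described here code for the proteins of the matrix around the developing mouse retina: collagen chains, laminin chains, the nidogens Nid1 and Nid2, perlecan (Hspg2) and fibronectin (Fn1). They were chosen by symbol among the protein-coding genes of the table that held all libraries. The rule itself uses no measured value, but it was set with earlier results of these data known. 57 genes matched, of 16220 protein-coding and 19954 listed genes. They were 42 collagen chains, 10 laminin chains, the 4 genes Nid1, Nid2, Hspg2 and Fn1, and Col4a3bp, which matched by its symbol although it codes for a ceramide transfer protein and not for a collagen.

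RNA was sequenced from whole retinas at embryonic day E15.5 (mouse strain C57BL/6), with 12 retinas pooled for each of 12 libraries. Mutant retinas were Six3-Cre:Tbr2f/f, so that loxP-flanked Tbr2 alleles met a Cre recombinase under Six3 control, which acts in the eye field and its neural derivatives. The controls were labelled wild type, and no Cre or floxed allele is named for them. The 4 groups were mutant males, mutant females, wildtype males and wildtype females, with 3 libraries each, numbered 4, 5 and 6. Pools mixed embryos of several litters, so a p-value here measures how far pools of retinas differ from each other. Tbr2, listed as Eomes, codes for a T-box transcription factor needed by a subset of retinal ganglion cells.

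Basement membranes are thin sheets that laminin trimers and a collagen IV network form side by side, with nidogens and perlecan bridging them. One such sheet, the inner limiting membrane, covers the vitreal face of the retina, where the endfeet of progenitors and glia anchor to it and ganglion cell axons grow along it, and others wrap the lens and the vessels of the hyaloid. The vitreous gel itself holds fibrils of collagens II, V, IX and XI, and much of the collagen IV and laminin of the embryonic eye comes from the lens and the ciliary body.

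Collagen IV chains are coded in pairs of genes that start back to back, and the start regions of an abundant pair (Col4a1 and Col4a2) and of a pair of low level (Col4a3 and Col4a4) are shown. The sequences come from RefSeq promoter windows on GRCm38.p6, of 300 bases each, read 5′ to 3′ along the strand of the named gene. Capitals mark GC boxes (GGGCGG, or CCGCCC on the other strand) and CCAAT boxes (CCAAT, or ATTGG on the other strand). Col4a1 is on the minus strand (chr8:11312777-11313076), Col4a2 on the plus strand (chr8:11312555-11312854) and Col4a4 on the minus strand (chr1:82586800-82587099), and the Col4a4 window also spans the listed start of Col4a3.
Col4a1: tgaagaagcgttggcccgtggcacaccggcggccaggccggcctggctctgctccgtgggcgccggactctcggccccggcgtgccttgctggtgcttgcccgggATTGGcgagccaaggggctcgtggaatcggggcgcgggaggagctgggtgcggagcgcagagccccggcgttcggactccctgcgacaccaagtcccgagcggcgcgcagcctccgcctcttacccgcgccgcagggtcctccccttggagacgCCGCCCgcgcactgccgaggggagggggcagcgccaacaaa
Col4a2: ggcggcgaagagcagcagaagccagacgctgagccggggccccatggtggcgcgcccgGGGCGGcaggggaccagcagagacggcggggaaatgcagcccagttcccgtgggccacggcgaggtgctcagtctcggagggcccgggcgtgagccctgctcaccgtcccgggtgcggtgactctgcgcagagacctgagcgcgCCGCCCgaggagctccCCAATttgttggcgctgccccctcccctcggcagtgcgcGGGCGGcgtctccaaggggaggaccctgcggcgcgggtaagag
Col4a4: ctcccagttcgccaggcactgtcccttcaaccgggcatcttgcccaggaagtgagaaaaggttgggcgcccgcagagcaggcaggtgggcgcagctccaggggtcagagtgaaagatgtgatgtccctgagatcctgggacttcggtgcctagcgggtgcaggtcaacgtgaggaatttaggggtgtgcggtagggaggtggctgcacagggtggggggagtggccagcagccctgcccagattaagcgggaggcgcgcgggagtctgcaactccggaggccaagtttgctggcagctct
The overlapping windows of Col4a1 and Col4a2 were 74.0% and 73.7% G or C, and that of Col4a4 was 63.3%, against a median of 52.7% over 32851 promoter windows. The Col4a1 window held 1 GC box and 1 CCAAT box, the Col4a2 window held 3 and 1, and the Col4a4 window held neither. The GC box of the Col4a1 window lies in the overlap and is the last of those in the Col4a2 window, read on the other strand. None of the 3 windows held TATAAA or the T-box core TCACACC on either strand. RefSeq windows were matched for 39 of the 57 genes (42 windows). A GC box was in 61.9% of these windows and in 35.7% of all windows, a CCAAT box in 35.7% and 37.4%, and TATAAA in 11.9% and 13.6%. The T-box core was in 2.38% of the members' windows, all of it in Col11a2, and in 3.98% of all windows. These shares describe letters in the windows and carry no test.

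The libraries held 18514607 to 27072825 counted reads. The check of the deleted gene followed the labels: Eomes was at 9.62 to 27.4 CPM (read counts scaled to the counted reads of the library) in the 6 mutant libraries and at 53.4 to 76.1 CPM in the 6 wildtype libraries, with a log2 fold change of -1.76 (edgeR, adjusted p = 0.000484). The retina was checked by 12 marker genes, which summed to 2834 to 3603 CPM in mutant and 2884 to 3070 CPM in wildtype libraries. Lens markers summed to 7.40 to 2080 CPM in mutant and 11.1 to 850 CPM in wildtype libraries, so lens RNA differed strongly between pools. The mitochondrial transcript mt-Nd6 split the libraries into 5 at 373 to 484 CPM and 7 at 9.70 to 48.4 CPM, with both genotypes and both sexes in each set. The 5 high ones were mutant male 4, mutant female 4, wildtype male 5, wildtype female 4 and wildtype female 6. The RNA of mutant male 6 stood apart for the genes described here, and is described after the comparison of genotypes.

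Taken as a group, the 57 genes held 0.1996% to 0.271% of the counted reads of a library. Levels between genes are compared as FPKM, which is CPM per kilobase of the listed gene length. 44 of the 57 genes had a mean of at least 1 CPM, 10 had a mean of at least 10 FPKM and 5 had at least 1 library without a read. Summed over chains, collagen IV had a mean of 105.6 FPKM, the fibril-associated collagens 101.8, the fibrillar collagens 46.1 and the multiplexins 32.4. The transmembrane collagens had 19.7, and the remaining collagens (VI, VII, VIII, X, XXVI and XXVIII) 12.4. Among non-collagens, the laminin alpha chains summed to 10.03 FPKM, the beta chains to 18.2, the gamma chains to 8.85, and Fn1, Hspg2, Nid1 and Nid2 together to 23.1.

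**Figure D1:**
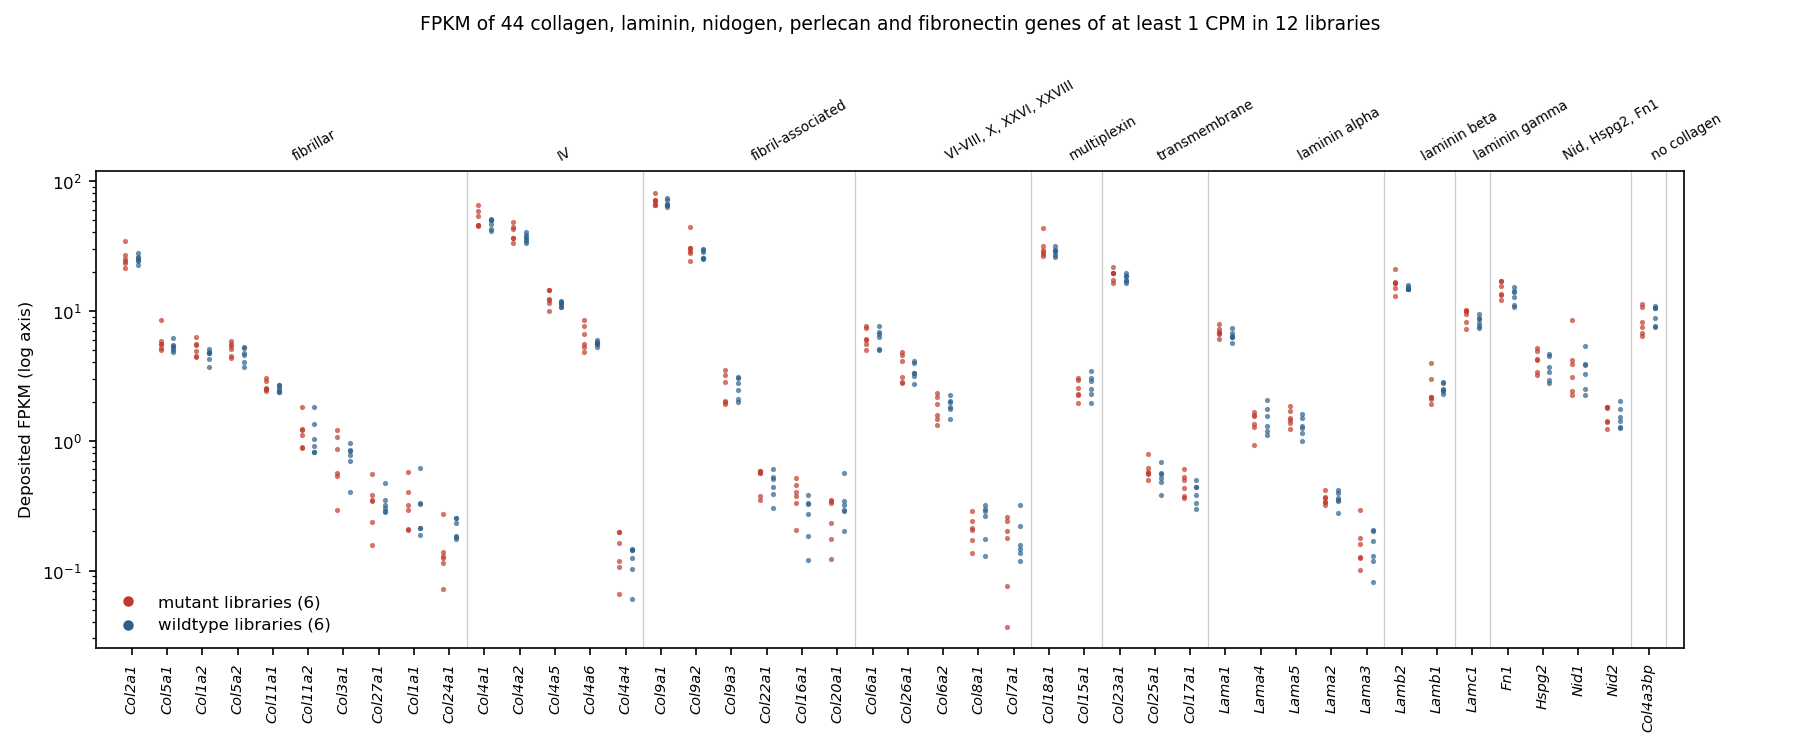
Deposited FPKM (log axis) of the 44 members of at least 1 CPM, ordered by structural class and by mean level within it, with 1 point per library, mutant libraries (6) left of wildtype libraries (6). Col9a1 and Col4a1 had the highest points, at up to 80.9 and 64.9 FPKM, and the mutant and wildtype points of nearly every gene lie in the same range.

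Collagen IV, the network collagen of basement membranes, was carried by Col4a1 and Col4a2, whose chains join in its most widespread trimer. Col4a1 (chr8:11198423-11312826, minus strand) had 44.6, 49.7 and 64.9 FPKM as lowest, median and highest of the 6 mutant libraries, and 41.2, 48.0 and 50.6 FPKM in the 6 wildtype libraries. Col4a2 (chr8:11312805-11449287, plus strand) had 33.3, 39.2 and 47.8 FPKM in mutant and 33.3, 36.1 and 40.5 FPKM in wildtype libraries. For both chains the ranges of the genotypes overlapped, the mutant range reached higher, and the highest value was in mutant male 6.
The ratio of Col4a1 to Col4a2 FPKM was 1.25 to 1.36 in mutant and 1.20 to 1.35 in wildtype libraries. The annotated genes overlap by 22 bases at their starts, and reads there cannot be assigned to a strand because the strand setting of the counting is not given in the sources used here. Col4a5 and Col4a6, chains of a collagen IV form found in a smaller range of tissues, start 1309 bases apart on the X chromosome and averaged 12.4 ± 1.78 and 6.39 ± 1.46 FPKM in mutant libraries and 11.3 ± 0.448 and 5.62 ± 0.264 FPKM in wildtype libraries (SD, n = 6 each). The ratio of Col4a6 to Col4a5 was 0.42 to 0.59 in mutant and 0.46 to 0.53 in wildtype libraries. Col4a3 and Col4a4, chains best known from the kidney glomerulus, were at a mean of 0.0743 and 0.131 FPKM over the 12 libraries, with starts 72 bases apart. Col4a3 rested on 4 to 27 reads in mutant and 8 to 19 in wildtype libraries, and the ratio of Col4a4 to Col4a3 ran from 0.740 to 8.25 in mutant and from 0.677 to 2.96 in wildtype libraries.

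The fibril collagens of the vitreous made up the other high group. Col9a1, a chain of the fibril-associated collagen IX, had the highest mean of all 57 genes, with 65.1, 69.6 and 80.9 FPKM as lowest, median and highest mutant library and 63.0, 65.7 and 74.3 FPKM in wildtype libraries. Its partner chains were lower: Col9a2 averaged 30.8 ± 6.83 FPKM in mutant and 27.2 ± 2.16 FPKM in wildtype libraries, and Col9a3 2.57 ± 0.693 and 2.57 ± 0.468 FPKM (SD, n = 6 each). Col2a1, the main fibrillar chain of vitreous and cartilage, averaged 25.8 ± 4.48 FPKM in mutant and 25.01 ± 1.90 FPKM in wildtype libraries.
The 5 listed cartilage markers (Acan, Matn1, Matn3, Lect1 and Hapln1) summed to 2.18 to 5.24 CPM in mutant and 2.43 to 4.40 CPM in wildtype libraries, with Acan at 0 in 6 libraries and Matn1 at 0 in 10. The chains that nucleate fibrils were lower, Col5a1 at 5.92 ± 1.29 FPKM in mutant and 5.30 ± 0.472 FPKM in wildtype libraries (SD, n = 6 each). Of collagen I, the main collagen of connective tissue, Col1a2 averaged 5.18 ± 0.716 FPKM in mutant and 4.54 ± 0.504 FPKM in wildtype libraries. Its partner chain Col1a1 averaged 0.334 ± 0.140 FPKM in mutant and 0.314 ± 0.160 FPKM in wildtype libraries, although a collagen I trimer holds more alpha 1 than alpha 2 chain. Col3a1, the collagen of soft connective tissue, was at 0.753 FPKM in both genotypes, with an SD of 0.348 in mutant and 0.193 in wildtype libraries.
Among the other fibril-associated chains, Col22a1, Col16a1 and Col20a1 had means of 0.482, 0.325 and 0.296 FPKM over the 12 libraries.

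Col18a1, the multiplexin of the inner limiting membrane and the source of endostatin, had 26.2, 28.8 and 43.4 FPKM as lowest, median and highest mutant library and 26.0, 28.9 and 31.7 FPKM in wildtype libraries. The medians of the 2 genotypes were close, and the single high value was mutant male 6. Col15a1, the other multiplexin, averaged 2.5003 ± 0.421 FPKM in mutant and 2.69 ± 0.541 FPKM in wildtype libraries. Col23a1, a transmembrane collagen that can be shed from the cell surface, averaged 19.0 ± 1.92 FPKM in mutant and 17.8 ± 1.23 FPKM in wildtype libraries. The transmembrane collagens Col25a1, Col17a1 and Col13a1 had means of 0.565, 0.432 and 0.273 FPKM over all libraries.
Of the microfibril-forming collagen VI, Col6a1 averaged 6.25 ± 1.03 FPKM in mutant and 6.23 ± 1.05 FPKM in wildtype libraries, and the ratio of Col6a2 to Col6a1 was 0.246 to 0.384 in mutant and 0.234 to 0.368 in wildtype libraries. The third chain of that trimer, Col6a3, was close to the floor, with 2 to 60 reads in mutant and 1 to 26 reads in wildtype libraries. Col26a1 averaged 3.69 ± 0.901 FPKM in mutant and 3.42 ± 0.528 FPKM in wildtype libraries.

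Laminins are trimers of an alpha, a beta and a gamma chain. The highest chain of each kind was Lama1, Lamb2 and Lamc1. Lama1, the alpha chain of the first embryonic basement membranes, averaged 6.91 ± 0.634 FPKM in mutant and 6.44 ± 0.545 FPKM in wildtype libraries. Lamb2, the beta chain of the inner limiting membrane and of synapses, averaged 16.4 ± 2.64 FPKM in mutant and 14.98 ± 0.505 FPKM in wildtype libraries, and Lamb1 2.54 ± 0.782 and 2.55 ± 0.221 FPKM (SD, n = 6 each). Lamc1, the gamma chain of most laminins, averaged 9.18 ± 1.17 FPKM in mutant and 8.31 ± 0.773 FPKM in wildtype libraries.
Lama5, a widespread alpha chain of later basement membranes, and Lama4, the alpha chain of vessels and muscle, followed Lama1 with means of 1.40 and 1.44 FPKM over the 12 libraries. Lamc3, a gamma chain of low abundance, had 2 to 16 reads in mutant and 0 to 15 reads in wildtype libraries. In the table of males, which listed more genes, the beta chain gene Lamb3 had 0 to 4 reads in mutant and 1 to 3 reads in wildtype male libraries.
Fn1, the fibronectin gene, averaged 14.7 ± 2.04 FPKM in mutant and 13.0 ± 1.82 FPKM in wildtype libraries. Hspg2, the heparan sulfate proteoglycan perlecan, averaged 4.18 ± 0.798 FPKM in mutant and 3.65 ± 0.766 FPKM in wildtype libraries. Col4a3bp averaged 8.45 ± 2.04 FPKM in mutant and 9.31 ± 1.53 FPKM in wildtype libraries.

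The main comparison set mutant against wildtype libraries. No Cre or floxed allele is named for the controls, so loss of Tbr2 cannot be told apart here from Cre or the floxed alleles. With both sexes together, 0 of the 53 members tested passed an adjusted p of 0.05 (edgeR quasi-likelihood test, p adjusted by Benjamini-Hochberg across the genes tested), beside 4 of 15467 genes in all, which is 0.0259%. The smallest adjusted p among the members was 0.918. At an unadjusted p under 0.05, 1 member (Col13a1) was counted, against 2.92% of all genes. DESeq2 had 0 members past the adjusted threshold (15 of 15467 genes) and 3 at the unadjusted one (501 genes). With limma these were 0 members (5 of 15467 genes) and 2 members (514 genes). The unadjusted edgeR count was 0 to 7 members without 1 library each, beside 311 to 1851 genes. It was highest without mutant male 4, where it was 7 of 54 members beside 1851 of 15793 genes. Among the 7 mt-Nd6-low libraries it was 9 of 55 members beside 1409 of 16149 genes, and among the 5 high ones 4 of 54 members beside 1184 of 15941 genes. These are whole retinas, in which fewer cells of a type and less RNA per cell cannot be told apart.
The abundant chains had small fold changes whose 95% intervals all held 0. The log2 fold change of mutant over wildtype was 0.15 for Col4a1 (95% interval -0.06 to 0.36), 0.12 for Col4a2 (-0.06 to 0.31), 0.14 for Col4a5 (-0.06 to 0.33) and 0.18 for Col4a6 (-0.09 to 0.45). It was 0.05 for Col9a1 (-0.09 to 0.19), 0.17 for Col9a2 (-0.05 to 0.39), 0.03 for Col2a1 (-0.15 to 0.22), 0.11 for Col18a1 (-0.12 to 0.34) and 0.09 for Col23a1 (-0.05 to 0.23). Col1a2 had 0.18 (-0.03 to 0.40), and among the laminins Lama1 had 0.10 (-0.07 to 0.26), Lamb2 0.12 (-0.07 to 0.31) and Lamc1 0.14 (-0.07 to 0.34). Fn1 had 0.17 (-0.07 to 0.42), Hspg2 0.19 (-0.14 to 0.52) and Nid1 0.19 (-0.49 to 0.86).
These directions did not hold in every set of libraries. Of the mutant libraries, the mt-Nd6-high set held only mutant male 4 and mutant female 4, and the part of these pools in its values was not tested. Among the 5 mt-Nd6-high libraries, values were below 0 for Col4a1 (-0.087), Col4a2 (-0.085), Col4a6 (-0.11), Col9a1 (-0.046), Col2a1 (-0.098), Col18a1 (-0.0085), Col23a1 (-0.047), Lamb2 (-0.071), Lamc1 (-0.019), Hspg2 (-0.019) and Nid1 (-0.23). With 1 library left out at a time, Col2a1 ran from -0.048 to 0.081, Col18a1 from -0.0080 to 0.16 and Nid1 from -0.19 to 0.40.

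**Figure D2:**
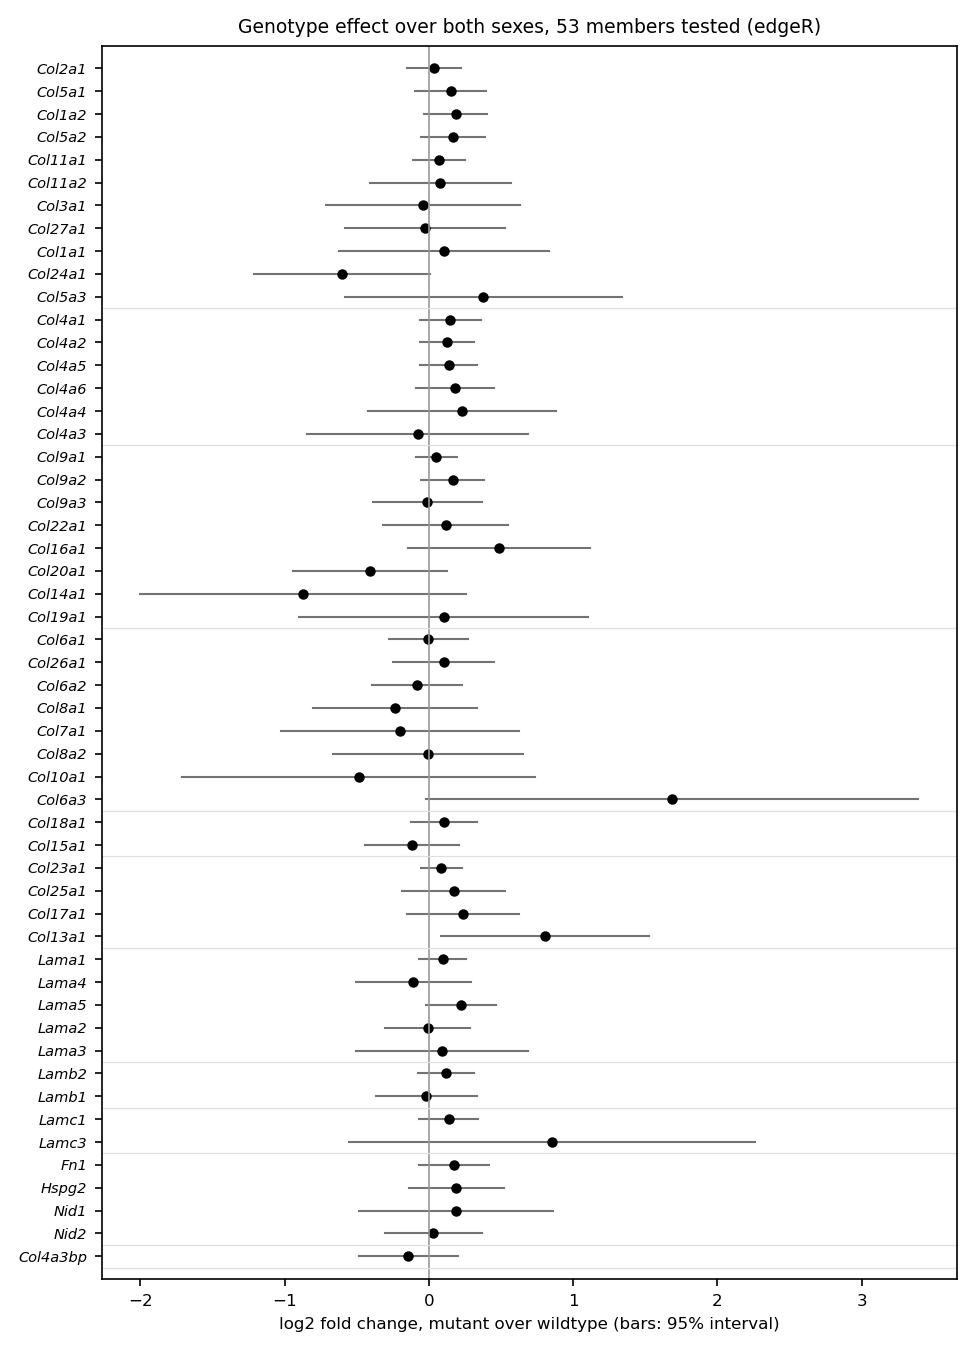
Log2 fold change of mutant over wildtype (points) with its 95% interval (bars) for the 53 members tested in the fit of both sexes, in the order of structural class. Col4a1 and Col9a1 have short bars around small values, and the bars of genes of low level such as Col6a3 (1.68) and Lamc3 (0.85) are long.

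Over the 53 members, 35 had a log2 fold change above 0 and 18 below it, with a median of 0.10, beside 7323 of 15467 genes above 0 and a median of -0.01 over all genes. This lean depended on libraries. Without mutant male 6 the members' median was 0.0345, with 33 above 0 and 20 below. Among the 5 mt-Nd6-high libraries it was -0.05, with 23 of 54 above 0, and among the 7 mt-Nd6-low ones 0.21, with 40 of 55 above 0. The median moved to 0.0675 without wildtype female 5, and was 0.07 to 0.15 without any other library than this one and mutant male 6.

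Mutant male 6 had the highest CPM of the 12 libraries in 19 of the 44 members of at least 1 CPM, where no other library had more than 8. Its 57 genes summed to 2712 CPM, against 1996 to 2410 CPM in the other libraries. The median member stood 0.27 above its own median over libraries on the log2 scale in this library, and 33 of 44 members were above it. Mutant male 5 also had 33 of 44 above, with a smaller median of 0.12. The 12 retina markers also summed highest in mutant male 6, to 3603 CPM against 2834 to 3070 CPM in the others. So did those of microglia (72.1 CPM, next 59.9), pericytes and smooth muscle (192, next 174), ciliary margin and stalk (270, next 237) and cartilage (5.24, next 4.40). Its lens and periocular mesenchyme markers were the lowest, at 7.40 and 7.35 CPM. Its endothelial, pigment epithelium, blood and surface ectoderm markers were neither highest nor lowest. The part of these differences in the members' levels was not tested.

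**Figure D3:**
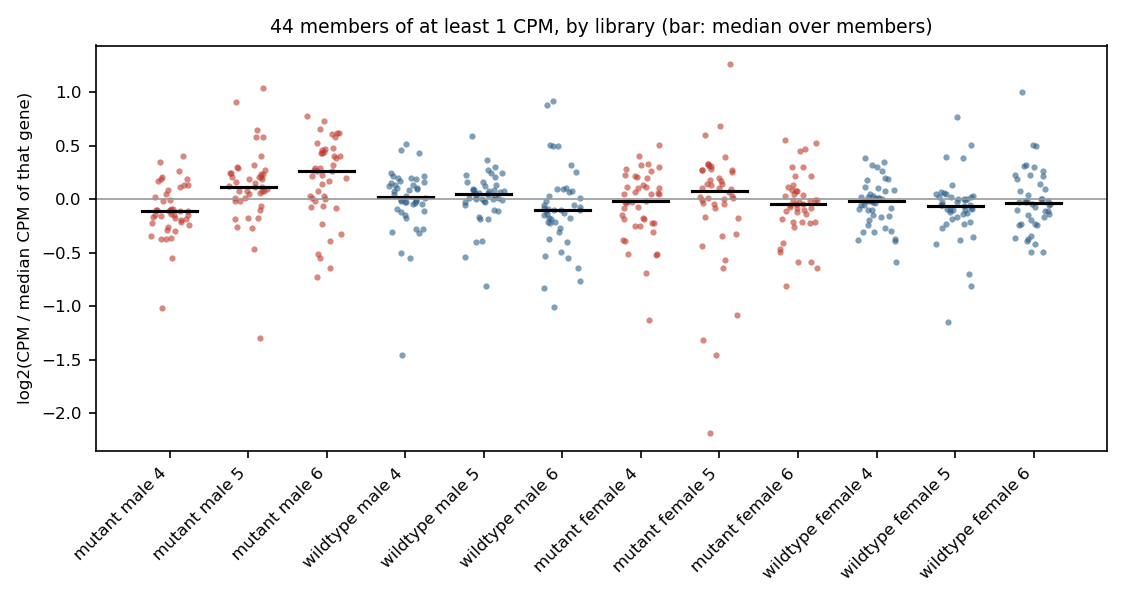
Each of the 44 members of at least 1 CPM in the 12 libraries, as log2 of its CPM over its median CPM (points), with the median over members in each library (bars). The bar of mutant male 6 lies highest, at 0.27, and that of mutant male 4 lowest, at -0.11.

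Members of low abundance had larger fold differences and wider intervals. Col13a1, a transmembrane collagen best known from the neuromuscular junction, had 1.05, 0.362 and 1.24 CPM in mutant males and 1.11, 1.54 and 1.36 CPM in mutant females, against 0.728, 0.820 and 0.462 CPM in wildtype males and 0.739, 0.610 and 0.350 CPM in wildtype females. Mutant females lay above all wildtype libraries, and 1 mutant male lay among the lowest of the 12. Its log2 fold change over both sexes was 0.81 (SE 0.33, edgeR, unadjusted p = 0.0307, adjusted p = 0.918), on 7 to 36 reads a library. Col24a1, a fibrillar collagen of low abundance, had 1.001, 0.517 and 1.94 CPM in mutant males and 0.887, 0.812 and 0.922 CPM in mutant females, against 1.25, 1.29 and 1.80 CPM in wildtype males and 1.66, 1.32 and 1.80 CPM in wildtype females. 5 of the 6 mutant libraries were below every wildtype library, and mutant male 6 was above all of them. Its log2 fold change was -0.60 (SE 0.28, edgeR, adjusted p = 0.918). In the authors' deposited table that joined males and females, 0 of the 57 members had an adjusted p under 0.05, and Col13a1 and Col24a1 were the 2 with an unadjusted p under 0.05.

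In males, 0 of 49 members tested passed the threshold, as did 0 of 14945 genes (0%). At an unadjusted p under 0.05, 1 member was counted, against 1.41% of genes, and without mutant male 4 the count was 5 of 51 members, beside 1833 of 15141 genes. Col16a1, a fibril-associated collagen, had 1.95, 2.69 and 2.11 CPM in mutant males and 0.624, 1.72 and 0.965 CPM in wildtype males. All mutant males were above all wildtype males (log2 fold change 1.005, SE 0.40, edgeR, unadjusted p = 0.0381, adjusted p = 0.994). Col25a1, a transmembrane collagen of neurons, had 4.10, 3.78 and 3.83 CPM in mutant males and 3.48, 3.75 and 2.56 CPM in wildtype males, again without overlap. These 2 members of 53 stood beside 2.47% of all genes with mutant above wildtype in every male library. No member had mutant males below wildtype males throughout, as 3.04% of genes did.
In females, 0 of 49 members passed the threshold, beside 1 of 14956 genes (0.00669%), and 3 had an unadjusted p under 0.05, beside 2.63% of genes. With the library number as a replicate block, 0 of 49 passed the threshold and 7 had an unadjusted p under 0.05, beside 849 of 14956 genes. The 3 without the block were Col13a1 (log2 fold change 1.21, SE 0.37), Col24a1 (-0.87, SE 0.29) and Lama5 (0.33, SE 0.13), each with an adjusted p of 0.986 in edgeR. Lama5 had 16.5, 15.47 and 16.9 CPM in mutant females and 12.9, 14.6 and 11.3 CPM in wildtype females, and 14.0, 19.3 and 21.2 CPM in mutant males and 18.4, 17.0 and 14.2 CPM in wildtype males. The female values did not overlap and the male values did. Lama1, Lama5, Lamc3 and Col13a1 were higher in every mutant female than in every wildtype female, beside 4.21% of genes, and Col24a1 was lower, beside 3.89% of genes. In the same direction in both sexes, 0 of 53 members were without overlap, against 0.394% of genes.

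Whether the genotype effect differed between females and males was tested by the interaction term. 0 of 53 members and 0 of 15467 genes (0%) passed the threshold, and 0 members had an unadjusted p under 0.05, beside 1.73% of genes. Within each mt-Nd6 set the interaction rests on 1 library in at least 1 of the 4 groups, so no counts are given there. The smallest member p-values were those of Col15a1 (female effect minus male effect 0.55 on the log2 scale, SE 0.27), Lama4 (0.64, SE 0.34) and Col16a1 (-0.998, SE 0.53), each with an adjusted p of 0.99996 in edgeR. Col15a1 had 11.8, 15.6 and 15.2 CPM in mutant females against 14.997, 13.0 and 9.99 CPM in wildtype females, and 10.1, 11.6 and 13.2 CPM in mutant males against 17.7, 15.8 and 11.9 CPM in wildtype males. The genotypes overlapped in both sexes.
Between female and male libraries, 0 of 53 members passed the threshold, beside 2 of 15467 genes (0.0129%), and 1 had an unadjusted p under 0.05, beside 2.79% of genes (4 of 54 without mutant male 4, beside 1986 of 15793 genes). That 1 member was Col20a1, a fibril-associated collagen, with 0.976, 0.513 and 0.728 CPM in mutant females and 0.850, 1.22 and 1.45 CPM in wildtype females, against 1.38, 1.45 and 1.46 CPM in mutant males and 1.20, 1.33 and 2.35 CPM in wildtype males. Females and males overlapped through the wildtype libraries (female over male log2 fold change -0.68, SE 0.25, edgeR, adjusted p = 0.879). The X-linked pair Col4a5 and Col4a6 had female over male values of -0.01 (95% interval -0.20 to 0.19) and -0.01 (-0.28 to 0.26).

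The median biological coefficient of variation fitted by edgeR over both sexes was 0.199 for the 53 members and 0.142 for all genes tested. The 2 sets were not matched for level. The highest values were those of Col6a3 (0.866), Lamc3 (0.634) and Col10a1 (0.563), all with a mean under 1 CPM. The abundant Col9a1 (0.096), Col2a1 (0.118), Col4a2 (0.120) and Col4a1 (0.132) were below the median of all genes. Among the 44 members of at least 1 CPM, the median of the coefficient of variation of CPM over the 12 libraries was 18.1%, and 28 had a highest library under 2 times the lowest. The widest ranges were those of Col7a1, Col20a1, Col16a1, Col3a1 and Col24a1. Col7a1, the collagen of anchoring fibrils, had 0.342 to 2.38 CPM in mutant and 1.09 to 2.94 CPM in wildtype libraries, and Col3a1 1.62 to 6.67 CPM in mutant and 2.22 to 5.36 CPM in wildtype libraries.

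Since the tissues next to the retina make many of these proteins, each of the 44 members of at least 1 CPM was compared over the 12 libraries with summed markers of lens, endothelium and periocular mesenchyme. This gave 132 relations, each a Pearson correlation of log2 values with a two-sided permutation test of 100000 resamples, adjusted over all 132. 1 member passed for lens markers, 2 for endothelial markers and 1 for periocular mesenchyme markers. At an unadjusted permutation p under 0.05 the counts were 2, 11 and 4 of the 44 members. The same relations were not computed for all genes, so the share of genes that would pass is not known.

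Nid1, whose product nidogen 1 ties the laminin and collagen IV networks together, followed the lens markers. In order of rising lens RNA, the 5 libraries with the least, at 7.40 to 13.7 CPM of lens markers, had 14.6 CPM of Nid1 in mutant male 6, 15.1 in wildtype female 6, 13.7 in wildtype male 6, 13.7 in mutant female 6 and 18.8 in mutant female 4. The next, at 59.5 to 240 CPM of lens markers, had 19.7 CPM in wildtype male 4, 23.4 in wildtype female 5 and 23.1 in wildtype female 4. The 4 libraries with the most, at 567 to 2080 CPM, had 23.4 CPM in mutant male 4, 32.2 in wildtype male 5, 25.3 in mutant male 5 and 51.3 in mutant female 5.
Nid1 was thus lowest where lens RNA was lowest, in both genotypes, and highest in mutant female 5, which had the most lens RNA. Pearson's r was 0.90 (permutation p = 1e-05, the smallest these permutations can give, adjusted p = 0.00132) and Spearman's rho was 0.95 (adjusted permutation p = 0.00132), over 12 libraries. Without the 2 libraries farthest from the median lens level, mutant male 6 and mutant female 5, r was 0.91 (adjusted permutation p = 0.0238). Within the 7 libraries low in mt-Nd6 r was 0.93 (exact permutation p = 0.000992, adjusted p = 0.0524), and no correlation is given over the 5 high ones. Within the 7 libraries with over 50 CPM of lens markers, a limit chosen after the levels were seen, r was 0.80 (exact permutation p = 0.0260, adjusted p = 0.375). With deviations from the means of the 4 groups, r was 0.95 (adjusted permutation p = 0.00132).
Between genotypes, all 13 lens markers tested had log2 fold changes above 0, with a median of 1.48, and 0 passed the threshold. The log2 fold change of Nid1 beside this was 0.19, and without the 3 libraries highest in the lens crystallin Cryaa it was -0.09.

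**Figure D4:**
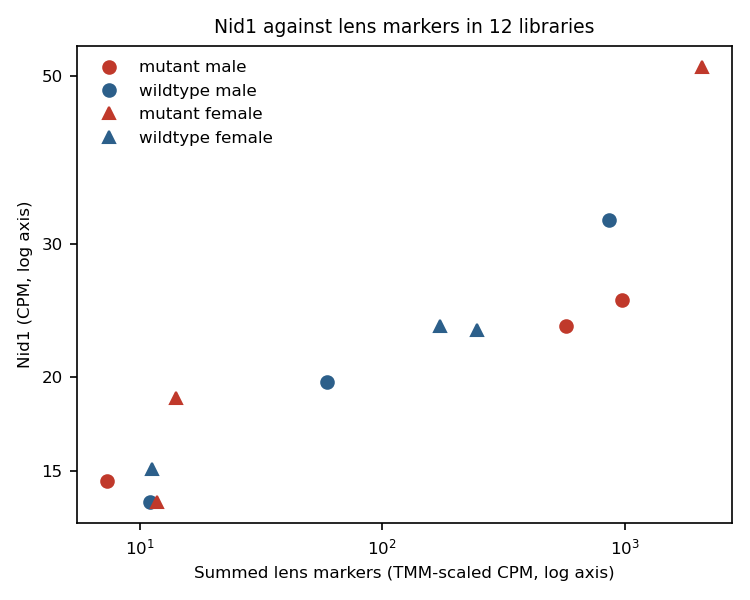
Nid1 CPM (log axis) against the summed lens markers in CPM with edgeR's TMM library scaling (log axis), with 1 point per library, circles for males, triangles for females, red for mutant and blue for wildtype. Mutant female 5 lies at the upper right with 51.3 CPM of Nid1, and the 5 libraries with the least lens RNA hold the 5 lowest Nid1 values.

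None of the other members passed the threshold with the lens markers, and Lamb1, a laminin chain, had the next smallest p, with r of 0.67 (adjusted permutation p = 0.158). Under 1 CPM, Col6a3 was highest in the 3 libraries with the most Cryaa, at 3.10 CPM in mutant male 5, 1.45 CPM in mutant female 5 and 1.02 CPM in wildtype male 5, against 0.0508 to 0.524 CPM in the other libraries. This member was chosen after its values were seen.

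Nid1 also had an r of 0.94 with the periocular mesenchyme markers (adjusted permutation p = 0.00264, rho 0.87). These markers were low, at 7.35 to 16.8 CPM in mutant and 7.94 to 11.5 CPM in wildtype libraries in sum, and 46.6% of the sum was Pdgfra, a receptor gene that lens epithelium also expresses. With Pdgfra left out, a choice made after the data were seen, r was 0.11 (adjusted permutation p = 0.941).
Lama4 followed the endothelial markers, whose 11 genes summed to 245 to 283 CPM in mutant and 239 to 273 CPM in wildtype libraries. It had 7.67, 9.37 and 5.56 CPM in mutant males and 10.1, 9.57 and 8.06 CPM in mutant females, against 12.4, 10.7 and 7.18 CPM in wildtype males and 9.31, 6.66 and 7.89 CPM in wildtype females. Both genotypes held high and low libraries, and r was 0.81 (adjusted permutation p = 0.0459, rho 0.89). Without the 2 libraries farthest from the median, wildtype male 6 and mutant female 5, r was 0.90 (adjusted permutation p = 0.0238), and within the 7 libraries low in mt-Nd6 it was 0.80 (exact permutation test, adjusted p = 0.390). Kdr, the main receptor for vascular endothelial growth factor, which embryonic retinal cells also express, made up 71.0% of the sum, and without it r was 0.61 (adjusted permutation p = 0.326). Nid1 had an r of 0.73 with the endothelial markers (adjusted permutation p = 0.103), and of 0.78 without Kdr (adjusted permutation p = 0.0968). The call of Lama4 was kept without mutant female 5 (adjusted permutation p = 0.0290) and without mutant male 6 (0.0330), and was lost without any 1 of the other 10 libraries (0.0505 to 0.115).
Col7a1 ran the other way, with r of -0.81 (adjusted permutation p = 0.0436, rho -0.86). Without the same 2 libraries r was -0.61 (adjusted permutation p = 0.563), and within the 7 libraries low in mt-Nd6 r was -0.92 (exact permutation test, adjusted p = 0.0524). Without Kdr in the sum r was -0.68 (adjusted permutation p = 0.220). The call of Col7a1 was kept without mutant female 4 (adjusted permutation p = 0.00396), mutant male 6 (0.0396) or wildtype male 5 (0.0189), and was lost without any 1 of the other 9 libraries (0.0507 to 0.290). The part of lens, vessel or mesenchyme cells in these levels was not tested.

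Genes that process, bind or degrade the matrix were read from the same fit of both sexes, and 0 passed the threshold in any of these lists. Of 24 genes of collagen processing tested, 15 were above 0 and 9 below (median log2 fold change 0.04). The smallest p-values there were those of Colgalt2, which adds galactose to collagen (-0.36, SE 0.14), of Bmp1, which cuts the carboxyl end of procollagens (0.15, SE 0.09), and of Adamts14, which cuts their amino end (-0.40, SE 0.26). Of 24 matrix receptors 12 were above 0 and 12 below (median -0.02), with Sdc3 (syndecan 3) at 0.17, Itga9 (integrin alpha 9) at 0.17 and Dag1 (dystroglycan) at 0.10. Of 11 genes that glycosylate dystroglycan so that it can bind laminin, 5 were above 0 and 6 below, with Pomgnt1 at 0.09 and Pomt2 at 0.10.
Of 20 other basement membrane and matrix genes, 15 were above 0 and 5 below (median 0.09). Tnc, the gene of tenascin C, had the smallest p of that list, with a log2 fold change of 1.03 (SE 0.27, edgeR, unadjusted p = 0.00233, adjusted p = 0.918), followed by Optc (opticin, a vitreous protein) at -0.29 and Smoc2 at 0.61. Tnc and Smoc2 were of low level, with 8 to 50 and 4 to 17 reads a library. Of 16 matrix proteases and their inhibitors, 11 were above 0 and 5 below (median 0.02), with Mmp14 at 0.06, Timp3 at -0.15 and Adamts1 at 0.05.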

How the data were processed

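The submitters' processing notes name CASAVA for base calling, STAR 2.5 with mm10 for alignment, HTSeq 0.6.1 for counting and DESeq2. They give neither the annotation release nor the strand setting. The deposited tables held, per the file headers, raw read counts, a normalised signal, FPKM, and the authors' log2 fold changes, p-values and adjusted p-values. The deposited FPKM equalled CPM per kilobase of listed length, and the normalised signal equalled the count over a constant per library and was used for this check only.

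Tests used the deposited counts of the table of both sexes, with edgeR 4.0.16 in R 4.3.3 (TMM scaling, filterByExpr, two-sided quasi-likelihood test, Benjamini-Hochberg over all genes tested, threshold 0.05). Genotype and sex were terms over all libraries, each sex was fitted alone, and the interaction was fitted over 12 libraries. Correlations used log2 CPM with a prior count of 2. Scripts were tested on simulated counts. DESeq2 1.42.0 and limma 3.58.1 served as alternatives. Deviations from group means were correlated over genes between same-numbered mutant and wildtype libraries. For numbers 4, 5 and 6, r was 0.21, 0.21 and 0.14 in females and -0.21, 0.01 and 0.29 in males. Libraries of different numbers were not compared, and the labels do not say what the numbers mark, so a pairing is not established.

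The members and lists were chosen with earlier results of these data known. Named members were those past a threshold or at an unadjusted p under 0.05 over both sexes, those whose genotypes did not overlap, the 3 of highest mean FPKM in each class, the 5 with the widest range, partner pairs, Col4a3bp, and in each pathway list the 3 genes of smallest p. Marker genes are given by sums and counts. Other members were named after their values were seen. Some genes that this rule names are not reported here.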

Additional observations from a re-analysis of the deposited data

Results flagged for a closer look

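In 6 of 78 groups of 6 libraries tested, 1 library of a member stood apart by Dixon's test at its 95% critical value. Chance passes this value in about 1 in 20 independent groups of unselected genes. Some members tested were named for a wide range or after their values were seen, and the groups share libraries. The count of 6 can therefore not be set against that rate. Mutant male 6 was apart from the other mutant libraries for 4 members: Col18a1 had 275 CPM there, with the next mutant library at 201 CPM, Col5a1 had 71.3 CPM with the next at 48.7 CPM, Col9a2 had 129 CPM with the next at 88.3 CPM, and Col24a1 had 1.94 CPM with the next at 1.001 CPM. This library was also the highest in summed retina markers, at 3603 CPM. It was the highest too in summed markers of microglia, pericytes and smooth muscle, ciliary margin and stalk, and cartilage. Nid1 was apart in mutant female 5, with 51.3 CPM and the next mutant library at 25.3 CPM, and this library had the highest summed lens markers, at 2080 CPM. Col6a3 was apart in wildtype male 5, with 1.02 CPM and the next wildtype library at 0.300 CPM, and that library had the highest summed lens markers of the wildtype libraries, at 850 CPM. The part of RNA from retina, lens or these other cell types in these values was not tested.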

How the results depend on the processing

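0 members passed the threshold in any of the 5 comparisons under every alternative run, and the smallest adjusted p of a member over them was 0.170. Genes past it over both sexes numbered 4, against 15 with DESeq2, 9 with a term for the mt-Nd6 set, 0 without the 3 libraries highest in Cryaa and 1 to 5 without 1 library each. With the library number, whose meaning the labels do not give, as a replicate block, there was 1. In males there were 0, against 6 with DESeq2. In females there was 1, against 10 with DESeq2, 2 with the replicate block, 0 without the Cryaa-high libraries and 0 to 2 without 1 library each. The interaction had 0. Female against male had 2, against 1 within those low in mt-Nd6, 1 without the Cryaa-high libraries and 2 to 3 without 1 library each.

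Members that passed with endothelial markers numbered 2, against 4 with deviations from group means, 1 without the 2 farthest libraries, 0 within the mt-Nd6-low libraries, 0 within those over 50 CPM of lens markers, 0 without Kdr and 0 to 6 without 1 library each. With lens markers 1 passed, against 2 with deviations, 0 within the mt-Nd6-low libraries, 0 over 50 CPM and 1 to 2 without 1 library each. With periocular markers 1 passed, against 0 within the mt-Nd6-low libraries, 0 over 50 CPM, 0 without Pdgfra and 1 to 4 without 1 library each. Sets of 7 libraries have fewer samples, and for other changes the cause was not tested.

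Among the 5 mt-Nd6-high libraries, log2 fold changes over both sexes were below 0 for Col4a1 (-0.087), Col4a2 (-0.085), Col4a6 (-0.11), Col2a1 (-0.10), Col9a1 (-0.046), Col18a1 (-0.0085), Col23a1 (-0.047), Col16a1 (-0.33), Lamb2 (-0.071), Lamc1 (-0.019), Hspg2 (-0.019) and Nid1 (-0.23). Nid1 was also at -0.088 without the Cryaa-high libraries. Without 1 library each, Col2a1 ran from -0.048 to 0.081, Col18a1 from -0.0080 to 0.16 and Nid1 from -0.19 to 0.40. Members under 1 CPM rest on few reads, which limits the precision of their values.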
